A study of Mus musculus with 7 samples.

Results

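The senescence and p53 pathway genes are 10 genes picked by symbol for their roles in cell-cycle arrest, namely Cdkn1a, Cdkn2a, Cdkn2b, Cdkn2c, Ccnd1, Rb1, Trp53, Mdm2, Ccng1 and Glb1. All 10 were found among the 24328 symbols of the kidney expression files, and 9 passed the filter on low values, a mean of at least 5 normalized counts. The kidneys came from 3 LBR-null mice (4001, 4002 and 4007, genotype Lbric-J/ic-J) and 1 WT mouse (4009, genotype Lbr+/+), all C57BL/6J and 4 weeks old. LBR, the lamin B receptor, sits in the inner nuclear membrane, anchors heterochromatin at the nuclear edge and also acts as a sterol reductase. The Lbric-J allele is present in every cell of these animals from conception, so the comparison is of whole mutant mice. Right kidneys were sequenced as poly(A) RNA in 7 libraries, with 2 libraries each for mice 4001, 4007 and 4009 and 1 for mouse 4002. The mouse is the replicate here, and library values of a mouse were averaged.

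The p53 protein, encoded by Trp53, is a transcription factor that is kept low by the ubiquitin ligase Mdm2 and accumulates after DNA damage and other stress. Its best known target, Cdkn1a, encodes p21, which inhibits cyclin-dependent kinases (CDKs) and so keeps the retinoblastoma protein Rb1 bound to E2F factors, whose target genes drive DNA synthesis and mitosis. The INK4 proteins encoded by Cdkn2a, Cdkn2b and Cdkn2c act on the same point by blocking CDK4 and CDK6, the partners of cyclin D1 (Ccnd1). Senescent cells are cells in lasting arrest. They are commonly recognised by p21 or p16INK4a, by lysosomal β-galactosidase activity (Glb1) and by a set of secreted proteins called the SASP.

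Of the 10 genes, Cdkn1a differed most between the genotypes. It was 7.93-fold higher in the LBR-null mean than in WT, and Ccnd1 was 2.26-fold lower. Trp53 and Glb1 were also lower, with all LBR-null libraries below either WT library, as held for 25.7% of all tested genes. Mdm2 and Rb1 were near their WT levels. Cdkn2a, the gene of p16INK4a, had 2 to 10 reads per library in LBR-null kidneys and 3 in each WT library. Outside the 10 genes, 11 of 13 E2F target and cycling genes were lower in every LBR-null library, against 25.7% of all tested genes, with a list median log2 fold change of -2.33. That list was chosen with earlier results of these data known.

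No gene of the 17283 tested, and so none of the 9 tested members, passed the main test, limma with Benjamini-Hochberg adjustment below 0.05 and a change of at least 2-fold (0% called). At an unadjusted limma p below 0.05, 1 member was higher and 0 were lower, against 10.7% and 8.05% of all tested genes. DESeq2 on the recovered reads called 1 member, Cdkn1a, against 3.24% of genes called higher and 3.48% called lower. edgeR called 0 members, against 0.00579% higher and 0.156% lower. With 1 WT mouse, limma assumes that WT mice vary as the LBR-null mice do, and an exact permutation test of 3 mice against 1 cannot give a two-sided p below 0.25.

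The sequences below show the promoter of Cdkn1a, the most different gene, and the p53 elements found. The first pair are the stretches near a coding start site of the 10 genes that match the p53 response element, which is 2 abutting half-sites of 10 bases, each with the core CNNG in capitals, where N is A or T. The other is the 250 bases upstream of the second annotated start of Cdkn1a, with CG dinucleotides in capitals, since the study classed genes by whether they have a CpG island. All were read from mouse build mm9, 5′ to 3′ on the strand of the gene.
Cdkn1a p53 element, chr17:29227873-29227892 (+): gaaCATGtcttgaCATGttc
Ccng1 p53 element, chr11:40568438-40568457 (-): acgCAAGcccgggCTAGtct
Cdkn1a promoter, chr17:29230467-29230716 (+): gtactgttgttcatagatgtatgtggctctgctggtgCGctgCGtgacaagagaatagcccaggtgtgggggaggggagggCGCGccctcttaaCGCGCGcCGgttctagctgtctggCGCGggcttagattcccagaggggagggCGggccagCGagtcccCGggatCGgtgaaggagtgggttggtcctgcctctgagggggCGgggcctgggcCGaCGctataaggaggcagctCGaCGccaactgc

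The Cdkn1a element begins at -51 bases from the first annotated coding start and at -2844 bases from the second, negative being upstream, and 1 of its letters departs from the consensus. The Ccng1 element lies 356 bases downstream of its start, also with 1 letter off. Both strands were searched from 3000 bases upstream to 1000 bases downstream of each start, with up to 2 letters off outside the cores. The other 8 members held no match in this window. By the same search, 688 of 22225 coding genes (3.1%) held one, as did 6 of 24 other p53 target genes that could be searched (Pmaip1, Plk2, Perp, Gdf15, Gtse1 and Psrc1). A match is a string of letters and not a measured binding site.

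CG content, as observed over expected CG in the 500 bases around a start, differed among the 3 starts of Cdkn1a, at 0.094 for the first, 0.71 for the second and 0.362 for the third. It was 0.719 at Ccnd1, 1.18 at Rb1 and 1.07 at Mdm2, against a median of 0.579 over 46000 coding starts. The files give 1 value per symbol, so reads from the 3 starts of Cdkn1a were not separated. The Cdkn1a gene spans chr17:29227924-29237667 on the plus strand, and Ccnd1 spans chr7:152115836-152125774 on the minus strand.

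**Figure D1:**
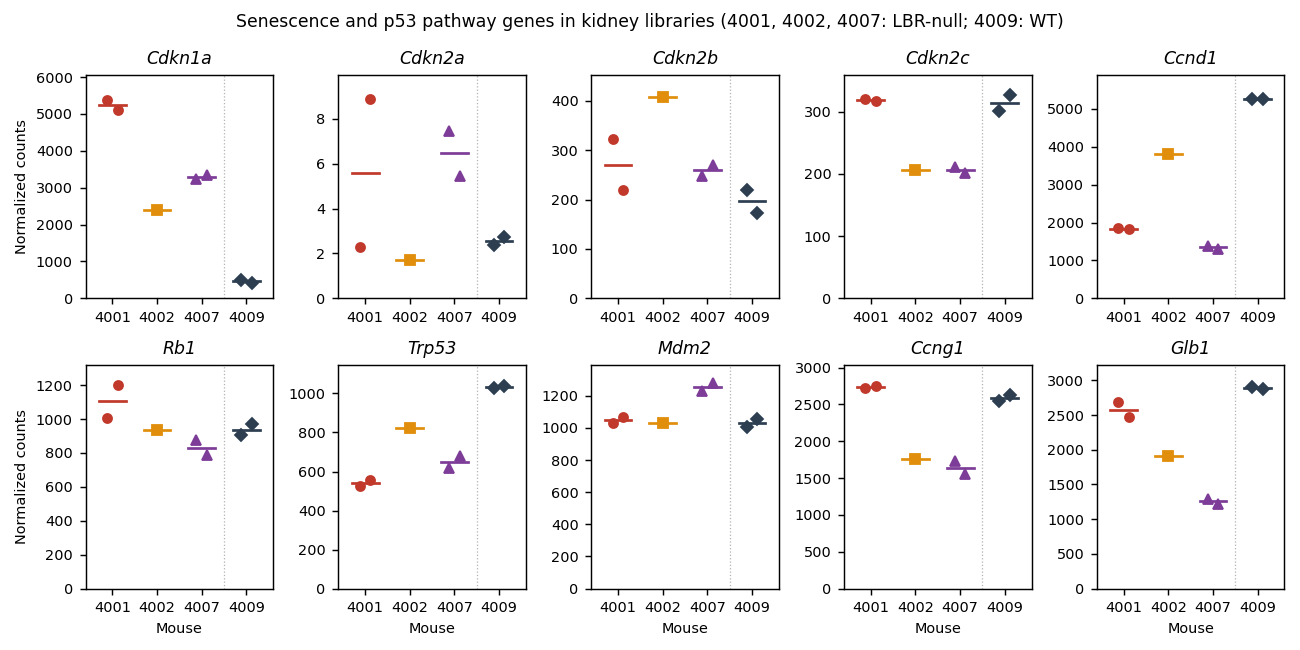
Normalized counts (y axis, from 0, a separate scale per gene) of the 10 genes in each library, grouped by mouse on the x axis, with LBR-null mice left of the dotted line and the WT mouse right of it. Points are libraries and short lines are mouse means. Cdkn1a lies between 2401 and 5371 in the LBR-null libraries and at 494 and 424 in WT, while Ccnd1 lies between 1303 and 3811 against 5269 and 5250.

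The libraries held 20694016 to 26333284 reads on genes, a 1.273-fold range at most. Lbr itself had 322, 340 and 471 normalized counts in mice 4001, 4002 and 4007 and 398 in WT, so its transcript level does not separate the genotypes. The mice also differ in Xist, the RNA that coats the inactive X, which was high in mice 4001 (5785) and 4007 (9940) and low in mouse 4002 (65.3) and WT (35.5). Ddx3y on the Y chromosome was at 141, 44.3, 1516 and 1284 in the same order, so mouse 4001 and, at a lower level, mouse 4007 had reads of both genes. Marker lists of other cell types also differed between libraries. The summed neutrophil markers were at 396 to 2508 normalized counts in LBR-null libraries and 79.6 to 84.3 in WT, with 7 of 8 tested markers higher in every library. Hepatocyte markers summed to 10004 to 27947 against 6406 to 6587, with 3 of 7 higher in every library. The median log2 fold change of the list was 2.45, 0.51 and 0.09 in mice 4001, 4002 and 4007. In mouse 4007, Serpina1a (5637 normalized counts against 1369), Apoa2 (562 against 226) and Fgb (442 against 149) were above WT, Alb (1546 against 1565), Ahsg (131 each) and Cps1 (92.7 against 87.3) were near it, and Ttr (1642 against 2968) was below it. Adrenal cortex markers summed to 180 to 254 against 124 to 144, with 4 of 4 tested markers higher, while Cyp11b1 and Cyp11b2, which define the cortex, had at most 3.44 normalized counts in any library. Of 8 macrophage markers, 6 were lower and 1, Cd163, was higher in every LBR-null library (log2 difference 1.61 for Cd163), and Mrc1 overlapped. Of 10 kidney epithelium markers, all were detected, 1 was higher and 6 were lower in every LBR-null library. For all tested genes the shares higher and lower in every LBR-null library were 25.5% and 25.7%. The part of any of these in the results below was not tested.

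Cdkn1a, which encodes p21, was at 5371 and 5097 normalized counts in the libraries of LBR-null mouse 4001, 2401 in mouse 4002, 3227 and 3335 in mouse 4007, and 494 and 424 in WT. Every LBR-null library was above both WT libraries, and the lowest of them came from mouse 4002. The mean was 3639 ± 1450 (SD, n = 3) against 459 in WT. Each mouse alone was above WT, by 11.4-fold in mouse 4001, 5.23-fold in mouse 4002 and 7.15-fold in mouse 4007. On the log2(normalized count + 1) scale the difference was 2.91 (limma SE 0.43, 95% interval 1.87 to 3.95), with an unadjusted p of 0.000407 and a limma adjusted p of 0.0843. The DESeq2 adjusted p was 5.88e-08 and the edgeR adjusted p was 0.1. Of the 17283 tested genes, 126 (0.729%) had a log2 fold change at or above that of Cdkn1a. Cdkn1a and the median of the hepatocyte markers were both highest in mouse 4001, but the marker Ttr was highest in mouse 4002 (4129 against 4004). The other mice were in opposite order. Cdkn1a was at 3281 in mouse 4007 and 2401 in mouse 4002, and the hepatocyte median log2 fold change was 0.09 and 0.51. The log2 difference was 2.61 without mouse 4001 (limma adjusted p = 0.00727), 3.17 without mouse 4002 (limma adjusted p = 0.00471) and 2.95 without mouse 4007 (limma adjusted p = 0.12). Many more genes passed overall without mouse 4001 (505 higher and 658 lower) and without mouse 4002 (338 and 287) than in the main test, so these lower adjusted p-values are not particular to Cdkn1a. In bulk tissue, more RNA per cell and more cells with the RNA cannot be told apart.

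The INK4 genes did not share this difference. Cdkn2a yields both p16INK4a and, from another first exon, the p53 activator p19ARF, and its single symbol in the files joins them. It had 12 reads in mouse 4001, 2 in mouse 4002 and 14 in mouse 4007, against 6 in WT (exact Poisson 95% interval 2.2 to 13.1, counting error only). The normalized mean was 4.59 ± 2.52 (SD, n = 3) against 2.54. The library values overlapped, and the gene was left out of the test by the filter. With so few reads, only a large difference could have been detected.

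Cdkn2b encodes p15INK4b, an inhibitor of CDK4 and CDK6 that is induced by TGF-β. It was at 323 and 219 normalized counts in mouse 4001, 408 in mouse 4002, 247 and 271 in mouse 4007, and 220 and 173 in WT. One library of mouse 4001 fell among the WT values. The mean was 313 ± 83.1 (SD, n = 3) against 197, a log2 difference of 0.64 (95% interval -0.23 to 1.5, limma adjusted p = 0.393).

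Cdkn2c encodes p18INK4c, another inhibitor of the same kinases. It was at 320 and 318 in mouse 4001, 206 in mouse 4002, 212 and 201 in mouse 4007, and 301 and 327 in WT. Mouse 4001 lay at the WT level and the other LBR-null mice below it. The log2 difference was -0.40 (95% interval -1.26 to 0.47, limma adjusted p = 0.602).

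Ccnd1, the D-type cyclin that starts phosphorylation of Rb1 in response to growth signals, was at 1851 and 1822 normalized counts in mouse 4001, 3811 in mouse 4002, 1385 and 1303 in mouse 4007, and 5269 and 5250 in WT. All LBR-null libraries were below WT, but mouse 4002 was much nearer to it than the other mice. Mouse 4002 was also the LBR-null mouse nearest to WT in Xist (65.3 against 35.5) and Ddx3y (1516 against 1284). The part of that difference between mice in the Ccnd1 values was not tested. The mean was 2331 ± 1306 (SD, n = 3) against 5259, a log2 difference of -1.32 (SE 0.55, 95% interval -2.65 to 0.01, limma adjusted p = 0.27). By mouse it was -1.52, -0.46 and -1.97. Without mouse 4002 it was -1.74 and passed the test, with a limma adjusted p of 0.0351. A log2 fold change at or below that of Ccnd1 was held by 772 genes (4.47%). In the mm9 annotation 818 exon bases of Ccnd1 overlap Oraov1 on the opposite strand, and whether the counting used strand is not given in the sources used here.

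Rb1, the pocket protein that holds E2F factors inactive, was at 1006 and 1202 in mouse 4001, 937 in mouse 4002, 875 and 789 in mouse 4007, and 905 and 970 in WT. The LBR-null libraries lay on either side of the WT values. The mean was 958 ± 137 (SD, n = 3) against 937, a log2 difference of 0.02 (95% interval -0.61 to 0.65, limma adjusted p = 0.977) whose sign changed with TMM scaling (-0.01). Rb1 shares exon bases on the opposite strand with Lpar6 (408 bases) and Rcbtb2 (488 bases).

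Trp53 was at 528 and 554 normalized counts in mouse 4001, 822 in mouse 4002, 619 and 678 in mouse 4007, and 1026 and 1037 in WT. It was thus lower in every LBR-null library, lowest in mouse 4001, where Cdkn1a was highest. The mean was 671 ± 142 (SD, n = 3) against 1031, a log2 difference of -0.64 (SE 0.30, 95% interval -1.37 to 0.09, unadjusted p = 0.0751, limma adjusted p = 0.318). Reads of Trp53 can be shared with a copy at chr17:54558919-54560086 (mm9), which matches 1177 bases of its transcript at 95.1% identity.

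Mdm2, which marks p53 for degradation and is itself a p53 target, was at 1029 and 1070 in mouse 4001, 1028 in mouse 4002, 1227 and 1277 in mouse 4007, and 1008 and 1058 in WT. Only mouse 4007 lay above both WT libraries with both of its own. The log2 difference was 0.10 (95% interval -0.49 to 0.69, limma adjusted p = 0.869), an interval whose upper end is below the lower end of that of Cdkn1a.

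Ccng1, cyclin G1, a p53 target that recruits a phosphatase to Mdm2, was at 2721 and 2754 in mouse 4001, 1755 in mouse 4002, 1727 and 1558 in mouse 4007, and 2547 and 2623 in WT. Mouse 4001 was above WT and the other LBR-null mice below it. The log2 difference was -0.38 (95% interval -1.21 to 0.45, limma adjusted p = 0.604). A stretch of 256 bases of its transcript has a match of 86.7% identity on chromosome 15.

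Glb1, the lysosomal β-galactosidase behind the senescence stain, was at 2683 and 2478 in mouse 4001, 1906 in mouse 4002, 1291 and 1219 in mouse 4007, and 2903 and 2870 in WT. It was lower in all LBR-null libraries, least in mouse 4001. The mean was 1914 ± 663 (SD, n = 3) against 2886, a log2 difference of -0.65 (SE 0.41, 95% interval -1.64 to 0.33, limma adjusted p = 0.439).

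**Figure D2:**
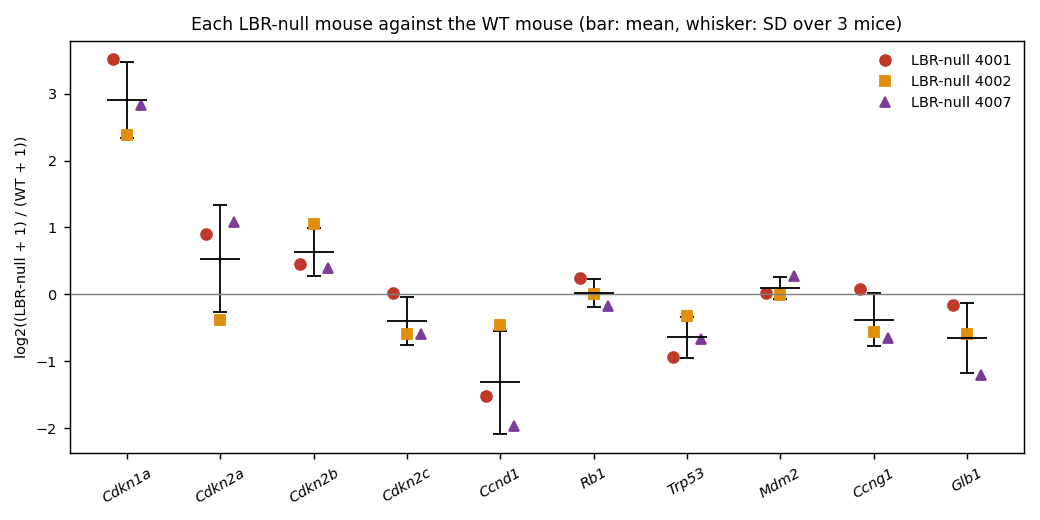
Log2 ratio of each LBR-null mouse to the WT mouse (y axis, normalized counts + 1) for the 10 genes (x axis), with points for mice, bars for their mean and whiskers for the SD over 3 mice. Cdkn1a is above 2 in each mouse (3.51, 2.38 and 2.83), and Ccnd1 is below 0 in each with mouse 4002 nearest to it (-0.46).

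Counted over the 9 tested members, 1 (Cdkn1a) was higher and 3 (Glb1, Trp53 and Ccnd1) were lower in all LBR-null libraries than in either WT library, and 5 overlapped. Over all tested genes these shares were 25.5% and 25.7%. A difference of at least 2-fold was held by 1 member upward and 1 downward, against 14.5% and 7.04% of tested genes. The median log2 fold change of the members was -0.38, against 0.01 for all tested genes, and it was 0.02, -0.33 and -0.60 in mice 4001, 4002 and 4007. It was -0.24 without mouse 4007 and -0.18 with no filter on low values.

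The order of the genes by level per kilobase of exon differed between genotypes. In WT, in normalized counts per kilobase, Ccnd1 was first (1371), followed by Glb1 (983), Ccng1 (736), Trp53 (255), Cdkn1a (206), Mdm2 (204), Rb1 (156), Cdkn2b (141), Cdkn2c (117) and Cdkn2a (2.17). In LBR-null kidneys Cdkn1a was first at 1637 ± 652 per kilobase (SD, n = 3). It was followed by Glb1 (652 ± 226), Ccnd1 (608 ± 341) and Ccng1 (582 ± 172), whose mice overlapped. Next were Cdkn2b (224 ± 59.7) and Mdm2 (219 ± 24.4), which also overlapped, and then Trp53 (166 ± 35.0) and Rb1 (159 ± 22.8), which overlapped too. The highest Trp53 mouse (203) was level with the lowest Mdm2 mouse and above the Cdkn2b level of mice 4001 (194) and 4007 (186), so Trp53 was not apart from these genes. Cdkn2c (90.8 ± 24.2) and Cdkn2a (3.92 ± 2.16) were last and were apart from each other and from the rest.

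Other target genes of p53 were examined as a list of 25. Among these, 9 were higher and 9 lower in every LBR-null library, 7 overlapped, and the median log2 fold change was 0.00. Of all tested genes, 25.5% were higher and 25.7% lower in this way. At an unadjusted limma p below 0.05, 6 were higher and 3 lower, against 10.7% and 8.05% of all tested genes, and 0 passed after adjustment in limma. DESeq2 called 3 higher and 3 lower, against 3.24% and 3.48% of all genes, and edgeR called 0. Cdkn1a was at the top of the range in the plot of p53 targets by mouse.

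Highest after Cdkn1a was Trp53inp1, a stress-induced nuclear protein, at 5179 ± 1924 (SD, n = 3) against 860 normalized counts, with a log2 difference of 2.51 (limma adjusted p = 0.0969, DESeq2 adjusted p = 1.16e-05). Its libraries were at 5847 and 6598 in mouse 4001, 2959 in mouse 4002, and 6411 and 6303 in mouse 4007. Sesn1, a sestrin that restrains mTORC1, was at 2755 ± 1254 (SD, n = 3) against 666, with a log2 difference of 1.92 (limma adjusted p = 0.149, DESeq2 adjusted p = 0.00646). As for Cdkn1a and Trp53inp1, mouse 4002 had its lowest value. Fas, a death receptor, was at 744 ± 180 (SD, n = 3) against 253, with a log2 difference of 1.52 (limma adjusted p = 0.113, DESeq2 adjusted p = 0.00467), and mouse 4002 lay between the other mice. Smaller differences in the same direction were held by the apoptosis gene Bbc3 (0.94), the DNA damage recognition genes Ddb2 (0.84) and Xpc (0.66), and by Btg2 (0.72), Plk2 (0.62) and Sesn2 (0.54) on the log2 scale.

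Lowest were Psrc1 and Gtse1, which encode microtubule-associated proteins of dividing cells, and Phlda3, an inhibitor of AKT. Psrc1 was at 7.94 ± 2.22 (SD, n = 3) against 44.9 normalized counts, with a log2 difference of -2.39 (limma adjusted p = 0.114, DESeq2 adjusted p = 0.0355). Gtse1 was at 13.5 ± 2.21 (SD, n = 3) against 55.9, with a log2 difference of -1.99 (limma adjusted p = 0.118, DESeq2 adjusted p = 0.0437). Phlda3 was at 137 ± 25 (SD, n = 3) against 366, with a log2 difference of -1.43 (limma adjusted p = 0.115, DESeq2 adjusted p = 0.00746). Smaller differences in this direction were held by Tigar (-0.69), Zmat3 (-0.58), Perp (-0.56), the pro-apoptotic genes Bax (-0.52) and Pmaip1 (-0.41), and Ei24 (-0.19) on the log2 scale.

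**Figure D3:**
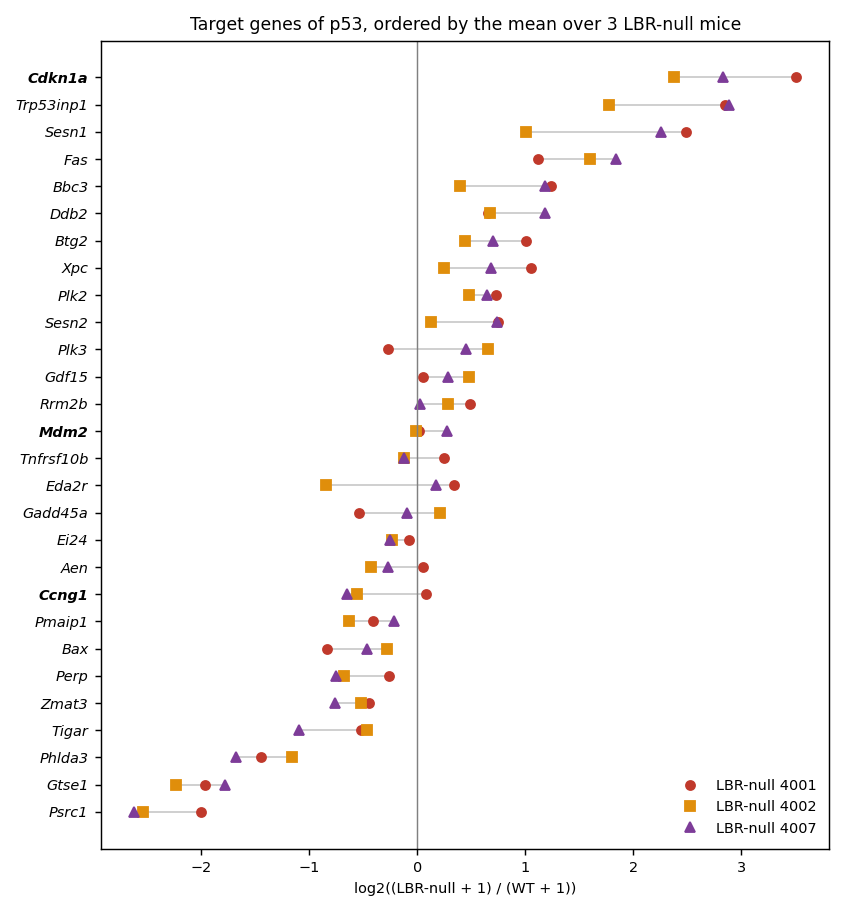
Log2 ratio to WT (x axis, normalized counts + 1) of the 25 other p53 targets and of Cdkn1a, Mdm2 and Ccng1 (bold), one row per gene ordered by the mean over mice, with a symbol for each LBR-null mouse and a grey line over their range. Cdkn1a (2.91), Trp53inp1 (2.51) and Sesn1 (1.92) are at the top, Phlda3 (-1.43), Gtse1 (-1.99) and Psrc1 (-2.39) at the bottom, and Mdm2 and Ccng1 lie near the middle.

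Near Cdkn1a, RefSeq lists 9 genes within 100 kb, of which 5 are in the files. This window was chosen after the value of Trp53cor1 had been seen. Trp53cor1, the long noncoding RNA known as lincRNA-p21, was at 40.2 and 31.9 normalized counts in mouse 4001, 40.4 in mouse 4002, 39.1 and 32.8 in mouse 4007, and 7.87 and 3.62 in WT. All LBR-null libraries were above WT, and the mice were closer to each other than for Cdkn1a. The log2 difference was 2.51 (SE 0.45, limma adjusted p = 0.0939, DESeq2 adjusted p = 0.0061). The coding neighbours Stk38 (-0.04), Srsf3 (-0.21) and Cpne5 (0.35) were near their WT levels on the log2 scale, Srsf3 being lower in every LBR-null library, and Rab44 was too low to test.

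Among 11 regulators of p53, 4 were higher and 2 lower in every LBR-null library (25.5% and 25.7% of all tested genes) and the median log2 fold change was 0.19. The checkpoint kinases differed in direction. Atm, the kinase that senses double-strand breaks, was at 587 ± 77.2 (SD, n = 3) against 429 normalized counts (log2 difference 0.44, limma adjusted p = 0.424). Its downstream kinase Chek2 was at 77.8 ± 12.5 (SD, n = 3) against 238 (log2 difference -1.61, limma adjusted p = 0.114, DESeq2 adjusted p = 0.00398), and Chek1 had a log2 difference of -1.43 with a limma adjusted p of 0.298. The phosphatase Ppm1d (0.40) and the ubiquitin ligases Rchy1 (0.38) and Rfwd2 were higher in every library.

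Of 16 other CDK inhibitors, cyclins, CDKs, pocket proteins and E2F factors, 2 were higher and 8 lower in every LBR-null library, against the same 25.5% and 25.7% of all tested genes, with a median log2 fold change of -0.32. The 2 higher genes were Cdkn1b, which encodes p27, the relative of p21, and Rbl2, which encodes the pocket protein p130 found in resting cells. Cdkn1b was at 2117 ± 389 (SD, n = 3) against 1138 normalized counts (log2 difference 0.88, limma adjusted p = 0.17). Rbl2 was at 1748 ± 340 (SD, n = 3) against 985 (log2 difference 0.81, limma adjusted p = 0.203). E2f1, which switches on S phase genes, was at 51.1 ± 17.8 (SD, n = 3) against 176 (log2 difference -1.82, limma adjusted p = 0.128, DESeq2 adjusted p = 0.0188). The cyclins Ccne1 (-1.45, DESeq2 adjusted p = 0.183) and Ccnd2 (-1.0, DESeq2 adjusted p = 0.0366) were lower as well, so cyclin D1 was not the only D-type cyclin below its WT level.

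The E2F target and cycling genes showed the most uniform direction of the 7 pathway lists. Of 13, 11 were lower and 0 higher in every LBR-null library. The same 11 were at least 2-fold lower, against 7.04% of all tested genes, and had an unadjusted limma p below 0.05, against 8.05%. DESeq2 called 11 of the 13 lower, against 3.48% of all genes, and edgeR and limma called 0. The median log2 fold change was -2.19, -2.47 and -2.35 in mice 4001, 4002 and 4007. Mki67, the proliferation antigen Ki-67, was at 116 and 117 normalized counts in mouse 4001, 95.4 in mouse 4002, 46.6 and 41.9 in mouse 4007, and 1026 and 1077 in WT. Its log2 difference was -3.72 (SE 0.56, limma adjusted p = 0.087, DESeq2 adjusted p = 6.73e-09). The mitotic cyclins Ccnb1 (13.5 ± 5.25, SD, n = 3, against 128) and Ccnb2 (27.2 ± 14.2, SD, n = 3, against 215) had log2 differences of -3.21 and -3.07. For these 3 genes the LBR-null mouse nearest to WT was mouse 4001, whereas for Ccnd1 it was mouse 4002.

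**Figure D4:**
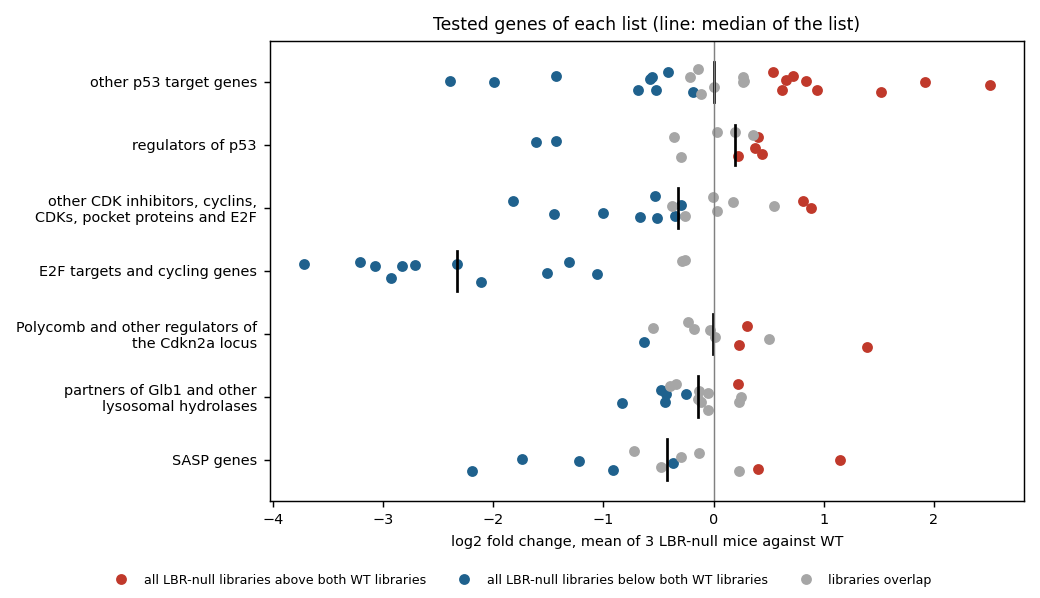
Log2 fold change, LBR-null mean over 3 mice against WT (x axis), of the tested genes of 7 lists (y axis), red where all LBR-null libraries are above both WT libraries, blue where all are below, grey where they overlap, with a black line at each list's median. The E2F target and cycling genes lie to the left, with a median of -2.33, while the other p53 targets spread on either side of 0.00.

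Regulators of the Cdkn2a locus were examined because Polycomb complexes keep that locus silent in young tissue. Of 10, 3 were higher and 1 lower in every LBR-null library (25.5% and 25.7% of all tested genes), and the median log2 fold change was -0.01. Cbx7, a Polycomb subunit that represses Cdkn2a, was at 1341 and 1335 normalized counts in mouse 4001, 1701 in mouse 4002, 2658 and 2673 in mouse 4007, and 712 and 675 in WT. Its log2 difference was 1.39 (SE 0.40, limma adjusted p = 0.142, DESeq2 adjusted p = 0.027). The Polycomb genes Bmi1 (0.30) and Suz12 (0.23) were slightly higher in every library, and Ets1, an activator of p16INK4a, was lower (-0.63, limma adjusted p = 0.212).

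Lysosomal hydrolases and partners of Glb1 gave no common direction. Of 15, 1 was higher and 5 were lower in every LBR-null library (25.5% and 25.7% of all tested genes) and 9 overlapped, with a median log2 fold change of -0.14. Gusb, β-glucuronidase, was at 373 ± 39.0 (SD, n = 3) against 660 normalized counts (log2 difference -0.83, limma adjusted p = 0.174). Hexa (-0.48) and Gaa (-0.44), whose loss causes Tay-Sachs and Pompe disease, were lower in every library, and the mannosidase gene Man2b1 (0.22) was higher.

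Of 15 SASP genes, 12 were tested, of which 2 were higher and 5 lower in every LBR-null library (25.5% and 25.7% of all tested genes), with a median log2 fold change of -0.42. Plau, the urokinase made by kidney tubules, was at 41672 and 41197 normalized counts in mouse 4001, 22145 in mouse 4002, 18697 and 18901 in mouse 4007, and 11493 and 11833 in WT. Its log2 difference was 1.15 (SE 0.53, limma adjusted p = 0.307), and its receptor Plaur had one of 0.40. The protease gene Mmp12 (-2.19, limma adjusted p = 0.182) and the growth factor gene Hgf (-1.74, limma adjusted p = 0.164) were lower in every library.

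The genes whose profile over the 7 libraries was most like that of Cdkn1a, among 13058 with a mean of at least 50 normalized counts, included Cyp2d26 and Serpina1a, each with a Pearson r of 0.997. Cyp2d26, a cytochrome P450 gene, had 17428 ± 3577 (SD, n = 3) against 6650 normalized counts. Serpina1a is also in the hepatocyte marker list. For Ccnd1 they were Atp11a (0.999), Slc7a13 (0.997) and Elovl6 (0.995). These 7 libraries come from 4 mice, and repeat libraries of a mouse share its RNA.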

How the data were processed

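Per the labels and the study's methods, 150 bp paired-end poly(A) reads were aligned by the authors with STAR 2.6.0 to mm9. The deposited values are a signal, gene counts divided by DESeq2 1.25.1 size factors. The counting program, its annotation and strand setting are not given in the sources used here. Whole reads were recovered for 100% of values within 0.01 of a whole number, 1 read being worth 0.787 to 1.15 normalized counts. Intervals on reads cover counting error only.

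Library values were averaged per mouse. The main test was limma 3.58.1 (R 4.3.3, intensity trend) on log2(normalized count + 1) of mouse means for the 17283 genes averaging 5 or more. A call needed a Benjamini-Hochberg adjusted p below 0.05 and at least 2-fold. Since fold changes are on the log2(value + 1) scale, those of low genes are understated. Both WT libraries came from 1 mouse. The p-values of the main test thus rest on the spread between LBR-null mice and hold no measure of the spread between WT mice. Alternatives were TMM scaling, equal totals, pseudocounts of 0.5 and 5, no filter, libraries as samples with the mouse as a random block, edgeR 4.0.16 and DESeq2 1.42.0 on the reads summed per mouse, and leaving out each LBR-null mouse or WT library. The fits were also run on simulated data with the same spread set for all genes. That run does not measure how they perform on these data.

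The members and gene lists were chosen with earlier results of these data known. The text names all 10 members, and of each pathway list up to 3 genes per direction with the largest difference among those whose LBR-null libraries all lay on 1 side of both WT libraries, the 3 genes most correlated with Cdkn1a and with Ccnd1, and Xist, Ddx3y and Lbr. Marker lists are given by counts and sums. Cyp11b1, Cyp11b2, the hepatocyte markers, Cd163, Mrc1, Rfwd2, Bbc3, Ddb2, Xpc, Btg2, Plk2, Sesn2, Bax, Pmaip1, Tigar, Zmat3, Perp, Ei24, Trp53cor1 and its neighbours were named after their values were seen. Copies were sought with blastn 2.17.0. The symbol Rfwd2 stands for Cop1, and the neutrophil marker Ly6g was not used here. Some items that these rules select are not reported here.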

Additional observations from a re-analysis of the deposited data

Results flagged for a closer look

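The 59 sets of 5 LBR-null libraries belonging to members and named genes were examined for a library far from the others. The limit used is one that 5 independent values pass by chance in about 5% of sets. These libraries come from 3 mice, so that rate does not apply to them. Sets that held such a library numbered 3. All 3 were the single library of mouse 4002. It had 3811 normalized counts of Ccnd1, above the other LBR-null libraries and nearer to WT. It had 2959 of Trp53inp1 and 1342 of Sesn1, below the other LBR-null libraries and again nearer to WT. Mouse 4002 was also the LBR-null mouse nearest to WT in Xist (65.3 against 35.5) and Ddx3y (1516 against 1284). Repeat libraries of mice 4001 and 4007 are not independent, and the cause of the gap was not tested.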

How the results depend on the processing

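Cdkn1a was higher and Ccnd1, Trp53 and Glb1 lower under all 13 alternatives. Log2 fold changes ranged from 2.61 to 3.17 for Cdkn1a (adjusted p 5.88e-08 to 0.229, passing in 4) and from -1.74 to -0.99 for Ccnd1 (0.0351 to 0.556, passing in 1). Members passing numbered 0 in the main test with limma, 1 with the mouse as a random block, 1 with DESeq2, and 0 to 2 on leaving out a mouse or WT library. Over all genes, those passing as higher and lower numbered 0 and 0 in the main test, 346 and 501 with the random block, 1 and 27 with edgeR and 539 and 578 with DESeq2. Leaving out a mouse or WT library gave 0 to 505 higher and 0 to 658 lower. Without mouse 4001 the counts were 505 and 658, without mouse 4002 they were 338 and 287, and without WT library 1 they were 1 and 0. The cause was not tested. Members lower in every library numbered 3, but 5 with libraries scaled to equal totals, which adds Cdkn2c and Ccng1. The sign for Rb1 reversed with TMM scaling (-0.01), without mouse 4001 (-0.09) and without WT library 1 (-0.03), the range on leaving out a mouse or WT library being -0.09 to 0.12. No paired analysis was possible because the replicate numbers of the labels mark libraries of 1 mouse and pair no mice across genotypes. Depth limits Cdkn2a, and 1 WT mouse leaves the spread between WT mice unknown.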
